A study of Mus musculus with 4 samples.

Results

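RUNX1 peaks of the fetal ovary whose midpoint lay within 1 kb of the starts of at least 2 genes on opposite strands numbered 1287, of the 10494 peaks in the list and of the 10490 on chromosomes 1 to 19 and X. They made up 12.3% of the placed peaks and 16.3% of the 7892 peaks within 1 kb of any gene start. Starts were those of curated RefSeq transcripts (messenger and noncoding RNAs) on mm10, and the rule used only the position of each peak and not its strength. The peaks came from ChIP-seq for RUNX1 in ovaries of CD1 XX mouse embryos at E14.5, freed of the mesonephros and pooled at 80 to 100 ovaries per ChIP by the labels (the study's methods give a larger pool), with 2 RUNX1 replicates and 2 input replicates made without antibody. The labels name no engineered allele and no treatment, and a whole ovary holds germ cells and stromal cells as well as the supporting cells in which RUNX1 is known to act. Reads of both replicates were merged before peaks were called, so each peak in the list has 1 fold over background and 1 p-value, with no value per replicate. The list gives no read counts, and the signal tracks of the ChIP and the input were not used here. All comparisons below are therefore descriptions of 1 list without a test. Intervals are 95% Wilson intervals, which cover counting over peaks or genes only, and neighbouring peaks and paired genes are not independent. A peak list holds no expression values, so the tissue could not be checked against marker genes.

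A divergent promoter is a stretch of DNA from which 2 genes on opposite strands are read away from each other. Such pairs are common in mammals, mostly sit in CpG islands without a TATA box, and often hold housekeeping genes for DNA repair, mitochondria and RNA processing. A coding gene may also share its promoter with a long noncoding RNA or an antisense transcript. RUNX1 binds DNA as a partner of CBFB at the core TGTGGT or TGCGGT, and in the fetal ovary it is known as a factor of the supporting cell lineage that works beside FOXL2. The label of divergent promoters held for most of these peaks and not for all of them. The closest starts of the pair pointed apart at 1025 peaks (79.6%, 77.4 to 81.8), whereas at 262 peaks (20.4%) the forward start lay to the left of the reverse start, so that the transcripts overlapped head to head.

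The sequences of 4 peaks that hold a RUNX core are shown first, because they had the highest folds of such peaks. Each is given on the forward strand of mm10 with the core in capitals, as TGTGGT or TGCGGT or their reverse complements. Bases in untranslated parts of exons of coding genes are left out except for 30 bases around a core. Exons of noncoding genes are shown. The first, at chr6:120364344-120364373, holds the core 78 bp from the midpoint of the peak of highest fold, where Ccdc77 and Kdm5a, the gene of a histone H3 demethylase, overlap in their first exons. The second, at chr1:87853301-87853570, runs from the first coding exon of Dgkd, a diacylglycerol kinase gene, into its first intron. The third, at chr7:141327830-141328129, is a whole peak between the starts of Deaf1, the gene of a transcription factor, and Tmem80. The fourth, at chr5:140321652-140321681, lies by the start of Nudt1, the gene of an enzyme that removes oxidised nucleotides, beside Mad1l1, a spindle checkpoint gene. The core lies 145 bp from the midpoint at Gm19582/Dgkd, near the edge of the peak, 83 bp at Deaf1/Tmem80 and 28 bp at Mad1l1/Nudt1.
Ccdc77/Kdm5a: gattttgtttccTGCGGTggcggactgatt
Gm19582/Dgkd: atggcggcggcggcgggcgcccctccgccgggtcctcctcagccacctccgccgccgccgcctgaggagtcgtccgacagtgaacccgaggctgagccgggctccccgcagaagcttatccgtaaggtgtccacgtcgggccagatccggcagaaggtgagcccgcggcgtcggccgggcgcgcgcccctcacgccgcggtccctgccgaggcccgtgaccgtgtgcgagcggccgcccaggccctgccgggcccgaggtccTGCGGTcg
Deaf1/Tmem80: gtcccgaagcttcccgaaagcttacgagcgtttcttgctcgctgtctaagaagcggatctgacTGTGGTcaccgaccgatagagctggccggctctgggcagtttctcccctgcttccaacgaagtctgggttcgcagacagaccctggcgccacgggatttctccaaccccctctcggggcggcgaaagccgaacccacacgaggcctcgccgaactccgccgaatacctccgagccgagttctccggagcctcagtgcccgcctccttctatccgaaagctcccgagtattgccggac
Mad1l1/Nudt1: gcctgagaacaaACCGCAgtcccgccaggg

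High folds were also found without the core. In the next pair of sequences the capitals mark other sites. Plagl2/Pofut1, at chr2:153240913-153241212, has 1 GGGCGG, the letters bound by SP and KLF factors. It is the peak of second highest fold and lies in intron 1 of Plagl2, a zinc finger gene, while Pofut1 encodes an enzyme that modifies Notch receptors. Zfp408/Arhgap1, at chr2:91649969-91650117, shows 1 of its 2 ETS sites, CCGGAAGT, just before the start of Arhgap1, the gene of a GTPase-activating protein.
Plagl2/Pofut1: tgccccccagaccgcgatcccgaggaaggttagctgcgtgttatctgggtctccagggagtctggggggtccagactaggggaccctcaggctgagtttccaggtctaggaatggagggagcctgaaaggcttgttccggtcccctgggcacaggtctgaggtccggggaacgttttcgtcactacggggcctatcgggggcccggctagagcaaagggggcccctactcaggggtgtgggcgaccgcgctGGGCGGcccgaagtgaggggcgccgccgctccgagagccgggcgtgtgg
Zfp408/Arhgap1: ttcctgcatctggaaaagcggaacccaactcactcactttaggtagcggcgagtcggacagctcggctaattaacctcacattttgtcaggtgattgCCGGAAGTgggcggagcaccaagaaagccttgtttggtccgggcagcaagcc

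The last set holds pairs with a link to the gonad. At A430035B10Rik/Glcci1, Peg3/Usp29 and Galnt7/AW046200 both genes are in the lists of genes changed in newborn Runx1/Foxl2 double knockout (DKO) ovaries, and Wt1 and Foxl2, added after their values were seen, encode transcription factors of the gonad. Capitals mark RUNX cores at A430035B10Rik/Glcci1 (chr6:8509262-8509561), Peg3/Usp29 (chr7:6729700-6729999) and Wt1os/Wt1 (chr2:105126284-105126528), and 1 GGGCGG at Galnt7/AW046200 (chr8:57651933-57652232). The Foxl2 peak (chr9:98955589-98955888) held none of the core, ETS or NFY letters. The part of it shown here (chr9:98955661-98955888) also holds no GGGCGG and is in lower case throughout.
A430035B10Rik/Glcci1: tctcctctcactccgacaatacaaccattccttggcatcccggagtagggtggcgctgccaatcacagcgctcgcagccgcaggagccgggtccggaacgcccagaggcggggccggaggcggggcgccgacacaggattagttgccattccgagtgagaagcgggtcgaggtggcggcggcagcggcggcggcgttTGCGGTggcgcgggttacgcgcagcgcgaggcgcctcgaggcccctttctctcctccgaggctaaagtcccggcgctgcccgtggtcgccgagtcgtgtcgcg
Peg3/Usp29: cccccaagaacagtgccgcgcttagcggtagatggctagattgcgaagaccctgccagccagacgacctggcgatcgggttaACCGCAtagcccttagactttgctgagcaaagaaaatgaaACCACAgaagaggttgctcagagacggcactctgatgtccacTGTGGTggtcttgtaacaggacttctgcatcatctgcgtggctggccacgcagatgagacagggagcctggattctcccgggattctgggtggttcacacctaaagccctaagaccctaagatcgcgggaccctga
Galnt7/AW046200: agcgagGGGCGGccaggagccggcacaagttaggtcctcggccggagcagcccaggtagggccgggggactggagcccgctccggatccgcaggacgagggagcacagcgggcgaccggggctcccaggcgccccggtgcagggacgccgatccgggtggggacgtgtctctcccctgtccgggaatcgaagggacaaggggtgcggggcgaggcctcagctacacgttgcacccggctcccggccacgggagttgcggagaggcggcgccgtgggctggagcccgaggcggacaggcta
Wt1os/Wt1: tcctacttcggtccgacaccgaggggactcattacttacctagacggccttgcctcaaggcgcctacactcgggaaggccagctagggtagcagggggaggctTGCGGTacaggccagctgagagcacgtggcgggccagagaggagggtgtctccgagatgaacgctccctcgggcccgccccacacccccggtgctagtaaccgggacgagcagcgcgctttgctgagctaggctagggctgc
Foxl2os/Foxl2: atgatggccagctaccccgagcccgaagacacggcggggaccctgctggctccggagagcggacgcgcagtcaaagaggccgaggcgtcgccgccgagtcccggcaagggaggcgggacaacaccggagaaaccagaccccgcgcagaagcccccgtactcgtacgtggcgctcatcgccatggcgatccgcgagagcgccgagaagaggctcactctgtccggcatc

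The peaks belonged to 1198 different pairs and had 2412 different genes within 1 kb, of 26089 genes in the gene models. That is 9.25% of all genes, the share against which the gene lists are read further on. A peak had 2 genes within 1 kb in 1268 cases, 3 in 17 and 4 in 2. The peaks with 4 were Snhg9/Rps2 and Gm25641/Mir9-1, the latter at a hairpin of the neural microRNA miR-9. Both genes were protein-coding at 740 peaks (57.5%), 1 was coding and 1 noncoding at 538 (41.8%), and both were noncoding at 9. A microRNA hairpin belonged to the pair at 19 peaks, and without hairpins and small nucleolar RNAs 1270 peaks remained. Of the pairs, 87 held 2 peaks and 1 held 3. In 74 of these 88 pairs the peaks lay on both sides of the middle between the starts, and the highest fold was a median of 1.36 times the lowest.

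At most pairs pointing apart, the midpoint of the RUNX1 peak was not in the space shared by the genes but inside one of them. The starts were a median of 146 bp apart (quartiles 79 and 273, at most 1449). The peak midpoint lay between the starts at 205 of the 1025 peaks (20.0%, 17.7 to 22.6), past the start on the reverse strand at 420 and past that on the forward strand at 400. Midpoints past a start were a median of 156 bp into the gene (quartiles 77 and 284.5), and 388 of these 820 peaks (47.3%) still reached the shared space with part of their 300 bp. A narrow space leaves little room for a midpoint, and the share between the starts went with its width, from 8.48% for starts up to 100 bp apart to 12.6% from 100 to 200 bp, 28.0% from 200 to 400 bp and 50.4% above 400 bp. Over the 350 pairs with starts at least 200 bp apart, where both sides can be set per length, there were 0.943 midpoints per kb between the starts and 1.09 per kb in the first 200 bp past a start. Peaks near a start that were not at such a pair showed a like displacement, with 69.7% of 6605 midpoints downstream of the nearest start and a median of 108 bp into the gene.

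**Figure D1:**
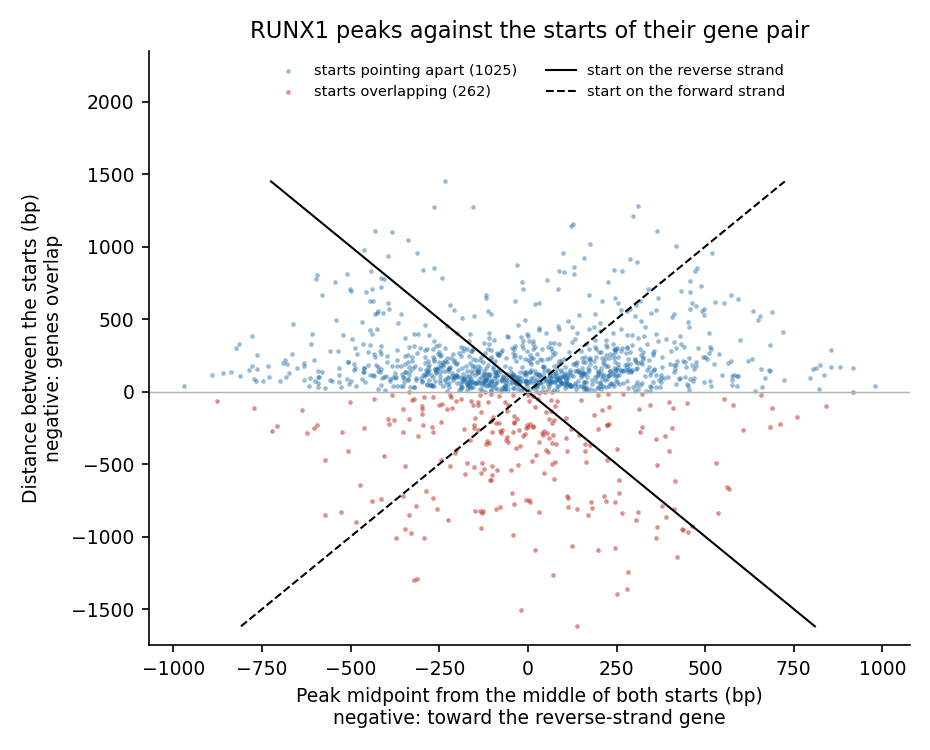
Position of the midpoint of each of the 1287 RUNX1 peaks in bp from the middle of both starts (horizontal axis) against the distance between the starts in bp (vertical axis, below 0 where the genes overlap). Each point is 1 peak and the lines are the starts; of the 1025 points above 0, 205 lie between the lines.

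In terms of gene structure, the midpoint was in an exon of 1 of the genes at 684 peaks (53.1%), in exons of both at 76 (5.91%), in an intron at 314 (24.4%) and outside both genes at 213 (16.6%). It was in a first exon at 741 peaks (57.6%) and in coding sequence at 201 (15.6%). The peak covered both starts in 231 cases, 1 start in 459 and neither in 597. The peaks just inside the limit of 1 kb were Fhod1/Slc9a5 and Gm51271/Chka, with their farther starts at 999 bp (folds 6.56 and 6.21), and Gm2164/Pou3f1 at 997 bp (fold 5.23). Just outside were Gm16537/Cox14 at 1002 bp (fold 28.03) and C530005A16Rik/Ccdc17 and Clcn2/Polr2h, both at 1005 bp (folds 7.07 and 4.22).

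Where a coding gene faced a noncoding gene, the peak was more often inside the coding one. Of 369 such peaks at pairs pointing apart, 64 were between the starts and 305 past one of them, and 206 of the 305 (67.5%, 62.1 to 72.5) were on the coding side. The median fold was 6.32 on the coding side (quartiles 4.89 and 8.64) and 7.40 on the noncoding side (quartiles 5.35 and 10.2), with quartiles that overlap widely. Emx2os/Emx2 and Wt1os/Wt1 are examples of the noncoding side. At Emx2, a homeobox gene needed to form the gonad, the midpoint was 478 bp into Emx2os and 533 bp upstream of Emx2 (fold 10.49). At Wt1 it was 77 bp into Wt1os and 96 bp upstream of Wt1 (fold 12.96). At Foxl2 the order was the other one, with the midpoint 131 bp into the coding exon of Foxl2 and 428 bp upstream of the Foxl2os start.

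Assignment of a peak to its nearest gene named 1 gene for nearly all of these peaks although the other start was close by. By midpoint, 1280 peaks (99.5%) had a single nearest gene, and by the edge of the peak 1046 (81.3%) did, since a peak that covers both starts is equally near to both. The farther start was a median of 135 bp farther from the midpoint than the nearer one (quartiles 67 and 246.5), less than the 300 bp width of a peak, and for 491 peaks (38.2%) the difference was under 100 bp. By midpoint, 1101 of the 2412 genes (45.6%) were not the nearest gene of any peak within 1 kb of their start.

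Genes in divergent pairs had a RUNX1 peak more often than genes outside them. Of the 1576 pairs in the gene models that point apart with starts at most 1 kb from each other, 975 (61.9%, 59.4 to 64.2) had a peak within 1 kb of both starts. The share was 66.6% for 938 pairs of coding genes, 57.0% for 602 pairs of a coding and a noncoding gene and 19.4% (9.75 to 35.0) for 36 pairs of noncoding genes. Among protein-coding genes, 37.3% had a peak within 1 kb of a start (32.8% of all genes). Among those in a pair it was 1628 of 2447 (66.5%, 64.6 to 68.4) and among those in no pair 6183 of 18476 (33.5%, 32.8 to 34.1). The GC content of the 300 bp at the start, taken at 1 transcript per gene, was a mean of 63.2% in paired and 58.6% in unpaired coding genes. Where it was at least 65% the shares were 77.0% and 61.8%, from 55 to 65% they were 61.7% and 34.6%, and under 55% they were 50.5% (45.6 to 55.4) and 7.69% (7.08 to 8.33). A peak inside either gene of a close pair counts for both, and whether the genes were active in the ovary was not examined, so the part of expression in this difference was not tested.

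**Figure D2:**
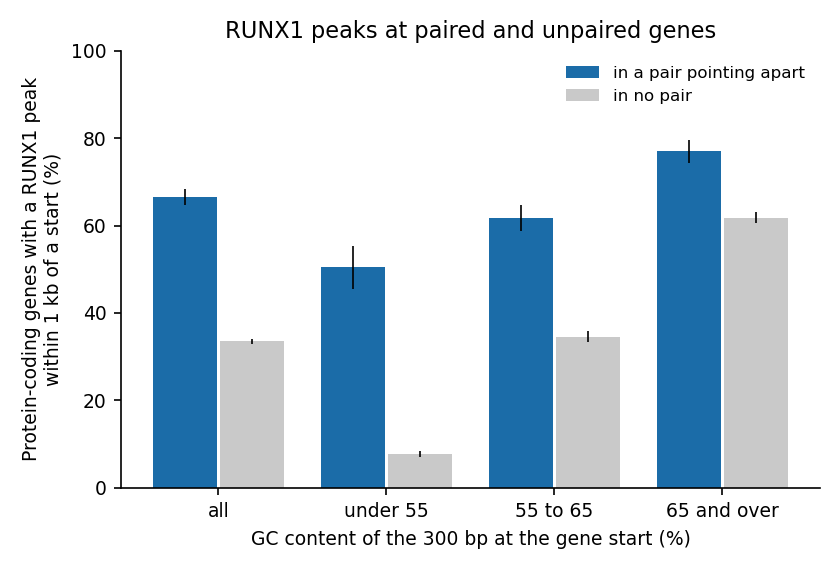
Share of protein-coding genes with a RUNX1 peak within 1 kb of a start, in percent, for genes in a pair pointing apart (blue) and in no pair (grey), over all genes and by GC content of the 300 bp at the start. Error bars are 95% Wilson intervals over genes; the shares under 55% GC are 50.5% and 7.69%.

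The peaks at pairs were like other peaks near a start in fold, but more of them had low p-values. Their fold ran from 4.01 to 87.01 with a median of 6.48 (quartiles 5.09 and 8.95), and the 6605 other peaks near a start also had a median of 6.48 (quartiles 5.06 and 8.83). The 2598 peaks farther than 1 kb from a start had a median of 6.29. Folds of 8 or more made up 32.2% of the peaks at pairs and 32.1% of the other peaks near a start. The p-value was under 1e-20 for 42.9% and 35.9%, respectively. The mean GC content was 66.5% and 67.3%. Peaks with their midpoint between the starts, overlapping pairs included, had a median fold of 6.71 (quartiles 5.18 and 9.95) and those past a start 6.38 (quartiles 5.09 and 8.72).

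A fold of 20 or more was found at 38 of the peaks. The highest was 87.01 at Ccdc77/Kdm5a (chr6:120364131-120364430), in exon 1 of both genes, whose transcripts overlap by 270 bp. Plagl2/Pofut1 followed at 68.50 with the midpoint 296 bp inside Plagl2, and Gm19582/Dgkd at 66.64 in exon 1 of Dgkd. Deaf1/Tmem80 reached 60.27 with the peak in the 405 bp between the starts. Zfp408/Arhgap1 reached 50.91 with the midpoint on the start of Arhgap1. The next was the pair of the mitochondrial chaperonin, Hspd1/Hspe1, at 36.56 (chr1:55087892-55088191), where the midpoint was in exon 1 of Hspd1 and 107 bp upstream of Hspe1. Cdc27/Myl4, with a gene of the anaphase-promoting complex and a myosin light chain gene, had 36.41 and lay in intron 1 of Cdc27. Dusp16/1700055D16Rik, with the gene of a MAP kinase phosphatase, and Zdhhc6/Vti1a, with genes of a palmitoyltransferase and of a SNARE protein, both had 35.17, and Mad1l1/Nudt1 had 31.01. Of these 10 peaks, 4 held a RUNX core. The lowest folds were 4.01 at Hscb/Chek2, Klhl28/Togaram1 and Cep76/Psmg2 and 4.03 at Aurka/Cstf1 and Rasef/Gm11240. They included the gene of the checkpoint kinase CHEK2 and that of the mitotic kinase Aurora A.

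The RUNX core, TGTGGT or TGCGGT on either strand, was in 448 of the 1287 peaks (34.8%, 32.3 to 37.5), against 39.9% of all placed peaks. It was in 34.0% of the other peaks near a start and in 57.5% of those farther away, where the mean GC content was 56.8%. Windows of 300 bp around the middle of the starts of the 975 pairs with a peak held it in 23.2% (20.6 to 25.9), and those of the 601 pairs without a peak in 16.3% (13.6 to 19.5), at mean GC contents of 64.5% and 59.0%. Of the peaks, 381 held 1 core, 58 held 2 and 9 held 3. The latter include Peg3/Usp29 above, Cct5/Atpsckmt and Rsf1os2/Clns1a. TGCGGT, the form with a CpG, was in 24.1% of the peaks and TGTGGT in 13.1%, while farther than 1 kb from a start the shares were 24.6% and 38.8%. Core centres were densest at the middle of the peaks at pairs, with 0.186 per 100 peaks per bp within 50 bp of the midpoint and 0.0699 at 300 to 500 bp. For the other peaks near a start the same densities were 0.176 and 0.0743, and far from starts 0.431 and 0.0894.

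**Figure D3:**
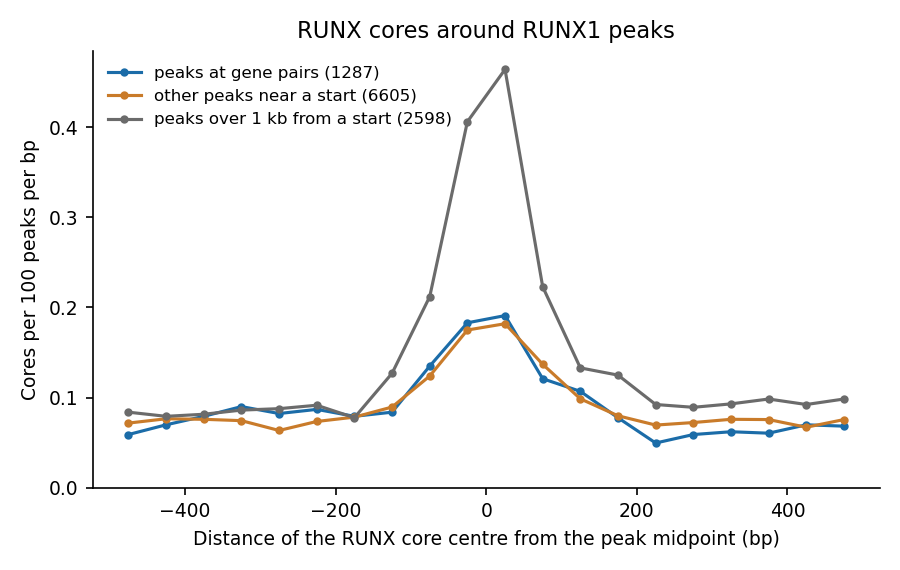
RUNX cores per 100 peaks per bp (vertical axis) against the distance of the core centre from the peak midpoint in bp (horizontal axis), in bins of 50 bp, for the 1287 peaks at gene pairs, the 6605 other peaks near a start and the 2598 peaks farther away. All lines rise at the midpoint, and the lines of the first and the second group run close together under that of the third.

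The share of peaks with a core rose over the quartiles of fold, but not at the very highest folds. By quartile of fold it was 26.2% (21.6 to 31.4) at folds of 4.01 to 5.07, 28.6% at 5.09 to 6.42, 34.0% at 6.48 to 8.92 and 162 of 324 peaks (44.6 to 55.4%) from 8.95 upward. A fold of 20 or more was found at 13 of the 448 peaks with a core (2.90%) and at 25 of the 839 without one (2.98%). The share with a core also went with GC content, from 43.5% of the peaks under 60% GC to 38.8% from 60 to 70% and 23.7% above. The values for the other peaks near a start were 49.1%, 36.3% and 26.2%. By type of pair, 37.2% of the peaks at pairs of coding genes, 31.4% of those at pairs of a coding and a noncoding gene and 4 of the 9 at pairs of noncoding genes held a core. Of the 524 cores, 326 (62.2%, 58.0 to 66.3) read along the strand of the gene with the nearer start. At pairs pointing apart it was 65.7% where the midpoint was past a start and 62.5% (52.5 to 71.5) of 96 cores where it was between the starts. In other peaks it was 62.9% downstream of the nearest start and 48.8% upstream. The strand of the nearer gene held 34.6% G and 31.9% C in the peaks at pairs, and GGGCGG read along it in 811 of 1475 cases (52.4 to 57.5%). For GGGCGG the shares were 59.0% past a start of a pair pointing apart and 51.9% between the starts. In other peaks they were 61.8% downstream of the nearest start and 50.9% upstream. The part of the excess of G over C in the direction of the cores was not tested.

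The ETS site CCGGAAGT was in 106 of the peaks (8.24%, 6.86 to 9.87), against 4.66% of all placed peaks, 5.34% (4.83 to 5.91) of the other peaks near a start and 1.15% of those farther away. It is bound by ETS factors, which act at many CpG island promoters. Windows around the middle of paired starts held it in 13.3% at pairs with a peak and 8.82% (6.81 to 11.4) at pairs without one. The shorter site CCGGAAG was in 19.3% of the peaks at pairs and 14.1% of the other peaks near a start. Pairs of coding genes had the site in 10.3% of their peaks, pairs of a coding and a noncoding gene in 5.58% and pairs of noncoding genes in 0 of 9 peaks. A RUNX core was in 34.0% (25.6 to 43.4) of the peaks with an ETS site and in 34.9% (32.2 to 37.6) of those without one. Within bands of GC content, the ETS share at pairs and at the other peaks near a start was 11.8% and 9.66% under 60%, 9.21% and 5.80% from 60 to 70%, and 4.9% and 3.41% above 70%.

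Of the other promoter sites, CCAAT, bound by NFY, was in 24.6% of the peaks at pairs, in 21.7% of the other peaks near a start and in 42.0% of the windows around the middle of all 1576 pairs. AAGATGGCG, bound by YY1, was in 4.04%, 2.88% and 4.44%, GCATGCGC, bound by NRF1, in 2.87%, 2.62% and 5.77%, and the CRE site TGACGTCA in 2.56%, 2.18% and 4.31%. GGGCGG was in 65%, 66.0% and 67.3%. Forkhead sites (TATTTAC or TGTTTAC), the kind bound by FOXL2, were in 1.79% of the peaks at pairs, 2.32% of the other peaks near a start and 6.31% of those farther away. Sites of GATA factors (AGATAA or TGATAA) were in 3.50%, 4.35% and 20.9%, those of NR5A receptors (CAAGGCCA or CAAGGTCA) in 2.10%, 2.73% and 9.89%, and those of TEAD factors (AGGAATG or GGGAATG) in 5.83%, 5.36% and 12%. The CTCF site was in 1 of the peaks at pairs (0.0777%), in 45 of the other peaks near a start (0.681%) and in 96 of those farther away (3.70%). These are matches of letters searched on both strands, and the shorter ETS site lies within the longer one.

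**Figure D4:**
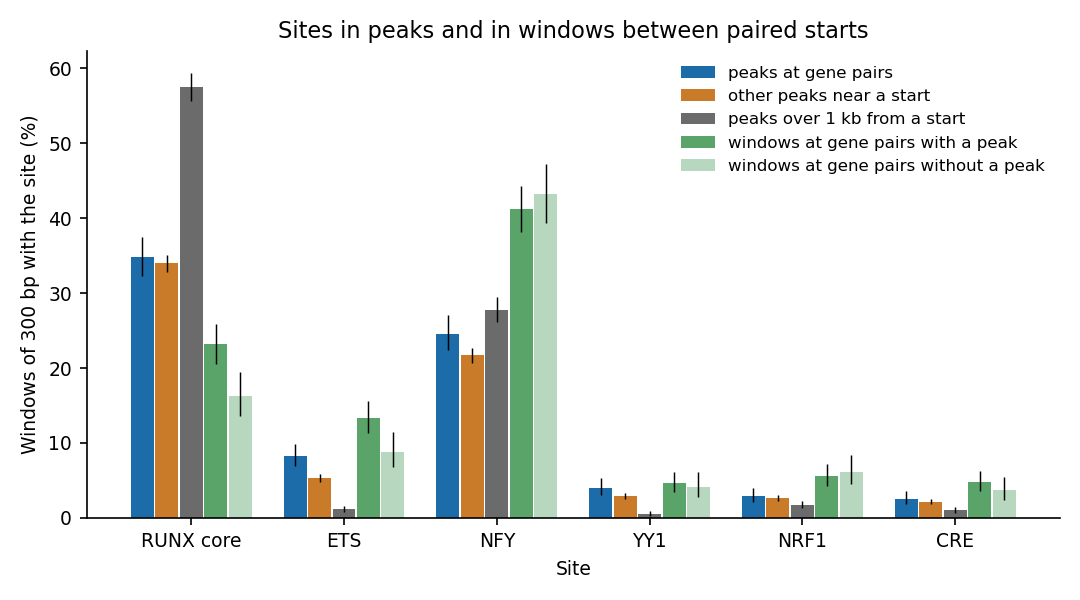
Share of 300 bp windows that hold each site, in percent, for RUNX1 peaks at gene pairs, other RUNX1 peaks near a start, RUNX1 peaks farther than 1 kb away and windows around the middle of paired starts with and without a peak. Error bars are 95% Wilson intervals; the RUNX core is in 34.8%, 34.0%, 57.5%, 23.2% and 16.3% of them.

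A list can only reach these peaks through genes with a start opposite another, and of all 3109 genes in a pair pointing apart 62.3% were at such a peak. Of 105 genes of DNA repair and replication, 33 (31.4%, 23.3 to 40.8) had a start within 1 kb of these peaks, against 9.25% of all genes, and 44.8% of the list belonged to a pair pointing apart, against 11.9% of all genes. Of the paired genes of the list, 66% were at a peak. The highest folds were at Atr, the gene of a DNA damage checkpoint kinase (18.98), Xrcc3, a recombination gene (13.22), and Orc5, a gene of the origin recognition complex (12.43). Atr shares its promoter with 1700065D16Rik at a distance of 80 bp, and the midpoint was 40 bp into Atr. Well-known divergent pairs of the list, chosen after their values were seen, had lower folds. Brca1/Nbr1 had peaks of 5.09 and 6.38 and Atm/Npat 1 of 5.55. Any RUNX1 peak within 1 kb of a start was found for 65.7% of the DNA repair and replication list, against 32.8% of all genes. This share was 72.5% for splicing factors, 67.9% and 67.5% for mitochondrial and cytosolic ribosomal proteins and 63.1% for chaperones. It was 56.8% for proteasome genes, 54.1% for aminoacyl-tRNA synthetases and 48.9% for respiratory chain and ATP synthase genes.

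Mitochondrial ribosomal proteins were at these peaks in 22 of 78 cases (28.2%). Of the list 38.5% were paired, and of the paired genes 21 of 30 were at a peak. They were led by Mrpl40/Hira at 24.07, Mrpl48/Rab6a at 15.43 and Ncapd2/Mrpl51 at 12.22. Of 90 respiratory chain and ATP synthase genes 19 were (21.1%), with the highest folds at Ndufb1/Cpsf2 (24.81), Ndufs1/Eef1b2 (21.84) and Ndufb11/Rbm10 (20.36), all genes of complex I paired with genes of RNA processing or translation. Ndufs1 and Eef1b2 start 9 bp apart. Of this list 27 of 90 genes were paired, and 63% of the paired genes were at a peak. Chaperone genes were at these peaks in 21 of 84 cases (25%), with 29.8% of the list paired and 76% of the paired genes at a peak. They include, besides Hspd1 and Hspe1, the cytosolic chaperonin genes Cct5 (18.51) and Cct7 (18.37), and Tcp1, Cct3, Cct6a, Cct6b and Cct8 of the same complex.

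Splicing factors were at these peaks in 17 of 69 cases (24.6%), with Srsf2/Mfsd11 at 14.28 and Plekhj1/Sf3a2 at 14.24. Of the list 31.9% were paired, and 77.3% of the paired genes were at a peak. Aminoacyl-tRNA synthetases, which load transfer RNAs, were in 6 of 37 (16.2%), led by Ears2/Ubfd1 (14.81), Wars/Wdr25 (8.41) and S100pbp/Yars (6.11), with 29.7% of the list paired and 54.5% of the paired genes at a peak. Cytosolic ribosomal proteins were in 12 of 83 (8.47 to 23.6%), led by Snhg9/Rps2 (15.97), Sphk2/Rpl18 (11.21) and Rpl36al/Mgat2 (9.26), with 16.9% of the list paired and 78.6% of the paired genes at a peak. Proteasome genes were in 6 of 44 (13.6%), with 18.2% paired and 62.5% of the paired genes at a peak. The highest of these was 25.92 at Psmb9/Tap1, the divergent pair of an immunoproteasome subunit and a transporter of antigenic peptides, with the midpoint between the starts. Psma4 (8.52) and Psma7 (6.86) followed.

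Clustered and linker histone genes, of which 39.1% belong to a pair pointing apart, were at these peaks in 9 of 69 cases (13.0%). Of the 27 of them in a pair, 6 were at a peak (22.2%). Only reads mapped at unique positions were kept, and how much of these genes such reads can cover was not examined. The highest folds of the list were 8.15 at H4c8 and 6.17 and 6.08 at H1f10. Histone genes whose symbols the list does not cover, named after their values were seen, included H2aw with peaks of 12.34 and 5.55 and H2az1 with 11.42 and 4.56. Zinc finger genes named Zfp were in 23 of 395 (5.82%, 3.91 to 8.59), with 8.61% of the list paired and 55.9% of the paired genes at a peak. Their highest folds, after Zfp408, were at Zfp319 (16.46) and Zfp276 (15.27). Small nucleolar RNA host genes were in 3 of 18, at Snhg9, Snhg18 (6.17) and Gas5 (4.32). Of the 6 collagen IV chain genes, which are arranged head to head, Col4a1 and Col4a2 had peaks of 6.40 and 4.20, and their closest starts overlap by 21 bp. Neither of the 2 genes of this list in a pair pointing apart was at a peak of a gene pair. Antisense and opposite-strand RNA genes were in 34 of 181 (18.8%, 13.8 to 25.1), led by Tnfsf13os (28.69), Wt1os (12.96) and Rsf1os2 (11.31), with 27.6% of the list paired and 42% of the paired genes at a peak. Any RUNX1 peak within 1 kb of a start was found for 44.4% of the small nucleolar RNA host genes and 42.5% of the Zfp genes. The share was 33.3% for collagen IV chains, 31.9% for histones and 22.1% for antisense and opposite-strand RNA genes, against 32.8% of all genes. No list was tested against another.

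**Figure D5:**
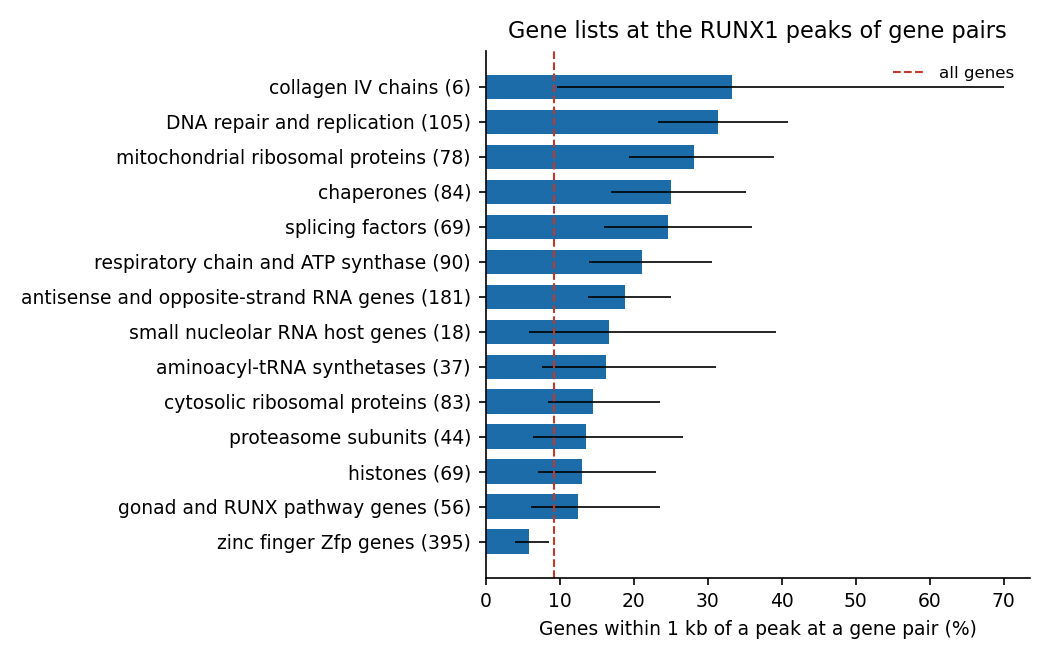
Share of the genes of each list, in percent, with a start within 1 kb of a RUNX1 peak at a gene pair; the number of genes is in parentheses. Error bars are 95% Wilson intervals over genes and the dashed line is the share of all genes, 9.25%; DNA repair and replication stands at 31.4% and Zfp genes at 5.82%.

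Of 56 genes of gonad development and the RUNX pathway, 7 (12.5%, 6.19 to 23.6) were at these peaks. The interval includes the 9.25% of all genes. Any RUNX1 peak within 1 kb of a start was found for 31 of the 56 (55.4%), against 32.8% of all genes. Of the list 12.5% were paired, against 11.9% of all genes, and 6 of the 7 paired genes (85.7%) were at a peak of a gene pair. The genes at a peak of a gene pair include Emx2, Foxl2, Inha, Map3k4, Tle1 and Wt1. The highest fold was 15.04 at Tle1, the gene of a corepressor that RUNX factors recruit. Its midpoint was 8 bp upstream of Tle1 in the 351 bp between Tle1 and C630043F03Rik, in sequence of 75% GC without a core. Wt1 followed at 12.96 with the TGCGGT shown above, 43 bp from the midpoint, and Emx2 at 10.49 with 1 TGCGGT. Foxl2 had 9.05 without a core. Of the genes named in the study, Ctcf was also at such a peak, Gm5914/Ctcf, with a fold of 5.97. There the midpoint was 6 bp upstream of Gm5914 and in intron 1 of Ctcf, whose start was 818 bp away.

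The study lists genes that fell or rose in Runx1/Foxl2 DKO ovaries measured by array after birth, whereas the peaks are from E14.5. The lists hold 961 symbols, of which 871 genes were found in the gene models. Of the 468 down genes 34 (7.26%, 5.25 to 9.98) and of the 402 up genes 20 (4.98%, 3.24 to 7.56) were at a peak of a gene pair, against 9.25% of all genes. Any peak of the list within 1 kb of a start was found for 220 of the down genes (42.5 to 51.5%) and 113 of the up genes (28.1%, 23.9 to 32.7). The share was 32.8% for all genes and 37.3% for protein-coding genes. The shares of all genes here include noncoding genes, and genes not measured by the array were not set apart. Of the down genes 7.91% and of the up genes 6.72% belong to a pair pointing apart, against 11.9% of all genes. Counting any gene within 1 kb, 55 of the 1287 peaks (4.27%, 3.30 to 5.52) had a DKO gene, and counting only the gene nearest to the midpoint 33 (2.56%, 1.83 to 3.58). The same shares at other peaks are not given here, so these are not read as high or low. The 871 DKO genes are out of 26089 in the gene models, and each of these peaks has at least 2 genes. Of the 54 DKO genes at these peaks, 20 (37.0%, 25.4 to 50.4) were not the nearest gene of any peak within 1 kb. Of all 2412 genes at these peaks the share was 45.6% (43.7 to 47.6).

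Both genes of the pair were in the lists at 4 peaks, and at each of them both carried the same direction. Peg3 and Usp29, paternally expressed imprinted genes, both rose. Their peak (chr7:6729700-6729999, fold 10.18) was in intron 1 of Peg3, with its midpoint 570 bp from the Peg3 start and 734 bp from that of Usp29, and held the 3 cores shown above within 64 bp of the midpoint. Glcci1, a glucocorticoid-induced gene, and the noncoding A430035B10Rik both fell, and their peak (fold 25.92) lay in the 439 bp between the starts with a TGCGGT 50 bp from the midpoint. Galnt7, the gene of an enzyme that starts O-linked sugar chains, and the noncoding AW046200 both fell, with a peak of 8.43 in the 1302 bp where they overlap. Abhd3 and 4930563E18Rik both rose, with a peak of 6.02 in intron 1 of Abhd3 and no core.

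The highest folds with 1 DKO gene in the pair, after these, were at Trak2/Stradb, 24.68, Wbp4/Elf1, 20.06, and Lrrc3b/B230110C06Rik, 16.66. Trak2, a gene of mitochondrial transport, Elf1, the gene of an ETS factor, and Lrrc3b are down genes. Socs2, the gene of a suppressor of cytokine signalling (14.44), 5830448L01Rik beside Wapl (13.49), Tmtc2 (12.96) and 4930503L19Rik (12.50) are also down genes, and Wt1os is an up gene. Foxl2, deleted in the DKO, is a down gene. At Trak2/Stradb the midpoint was 101 bp into Stradb, the nearer gene, and 141 bp from the Trak2 start. At 5830448L01Rik/Wapl it was 43 bp upstream of Wapl and 783 bp from the start of the gene in the list. Other DKO genes with a nearer partner, chosen after their values were seen, include Cenpk beside Ppwd1 (8.25), Abhd4 beside Dad1 (10.58), Lrrc8a beside 1700084E18Rik (6.71) and Krit1 beside Ankib1 (6.17).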

How the data were processed

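ChIP-seq for RUNX1 and input were measured in pooled ovaries, with 2 replicates each. The authors mapped reads at unique positions, removed duplicates, merged the replicates and called peaks, which were set to 300 bp and kept where enriched over input and the neighbouring signal. Tools listed in the submitters' processing notes are HOMER 4.9, bedtools 2.24.0, Picard 1.110 and Bowtie 1.2, with mm10 (GRCm38) as the build. The deposited list holds a position, a fold (a ratio to background by the authors' peak caller) and a p-value per peak, the latter given as 0 for 7 peaks. The list gives no read depth per peak, and the signal tracks were not used here.

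Gene starts were those of 45657 RefSeq transcripts of 26089 genes (20923 protein-coding) on GRCm38. Peaks on chromosomes 1 to 19 and X entered, which left out 4. For each peak the closest starts on opposite strands formed its pair. Sites were searched as letters on both strands of GRCm38 with Python 3.11.15, pysam 0.24.0, numpy 2.4.6 and pandas 2.3.3. The search and the pairing were tested on simulated data. Intervals are 95% Wilson intervals. No test between groups was run, since 1 merged list has no replicates.

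The peaks and the 14 gene lists were chosen with earlier results of these data known. Zfp and proteasome patterns were tidied, and the antisense list was limited to noncoding genes, after the data had been seen. Named were the 10 peaks of highest fold, up to 3 per gene list, those with both genes and up to 8 with 1 gene in the DKO lists, those of genes named in the study, the 3 on either side of the 1 kb limit, those with most genes and the 5 of lowest fold. Exceptions are marked in the text, and some items are not reported here. Alternatives were other windows, transcripts, orientations, distances and limits on fold and p-value.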

Additional observations from a re-analysis of the deposited data

How the results depend on the processing

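No paired analysis was possible because peaks were called on the merged reads of both replicates, and for the same reason no replicate could be left out. Of 30 alternatives, 10 moved a value by less than its counting interval, or a count by less than 1.5 times, and 20 moved it more. Peaks at gene pairs numbered 946 with a 500 bp window, 1453 with 2 kb, 1050 with pairs pointing apart only and 1324 by distance from the peak edge, and 738 with messenger RNA starts only, 414 at a fold of at least 8 and 552 at a p-value under 1e-20. At p under 1e-20 the median fold was 9.11. The share of midpoints between the starts was 24.4% at a fold of at least 8 and 25.1% at p under 1e-20. The share with a RUNX core was 13.1% for TGTGGT alone, 24.1% for TGCGGT alone, 23.5% with C or T required after the core, 16.6% in the central 100 bp and 46.6% at either limit on fold or p. The ETS share was 10.1% at p under 1e-20 and 19.3% for the shorter site. Pairs with a peak made up 55.6% with starts up to 2 kb apart and 66.6% with messenger RNA starts only. A single nearest gene was found for 81.3% by peak edge, and 2.56% of peaks had a DKO gene as the nearest. The share on the coding side fell to 59.2% at a fold of at least 8 and 60.6% at p under 1e-20; these limits, and the count without microRNA and small nucleolar RNA genes, were chosen after seeing the data. Why the values moved was not tested. The list gives no depth per peak, and weaker binding under its limits was not detectable.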

Other observations

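The share of a chromosome's peaks that were at gene pairs ran from 8.24% (6.48 to 10.4) of 752 peaks on chromosome 4 to 15.2% (12.5 to 18.5) of 552 on chromosome 8, and it was 9.66% of 207 on the X chromosome. The intervals of chromosomes 4 and 8 leave out the overall 12.3%, and those of the other chromosomes include it.

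Peaks of the same pair differed in fold to varying degrees. In 52 of the 88 pairs with more than 1 peak the ratio of the highest to the lowest fold was under 1.5, and the highest ratio was 5.06.

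Peaks past the start of a gene of a pair and peaks between the starts had the RUNX core in like shares, 35.2% (32.3 to 38.3) of 942 and 33.6% (28.8 to 38.8) of 345, overlapping pairs included. NFY sites were in 23.8% and 27.0% of them and the shorter ETS site in 17.5% (15.2 to 20.1) and 24.3% (20.1 to 29.1). These values carry no test.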
